A study of Mus musculus with 8 samples.

Results

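The genes described here encode S100 proteins, small calcium-binding proteins with a pair of EF-hand motifs. The members were 10 genes, S100a1, S100a4, S100a6, S100a8, S100a9, S100a10, S100a11, S100a13, S100a14 and S100a16, taken as every probe that the array annotation gives to one of these symbols. They had 11 probes among the 46089 on the array, and were 10 of its 22446 named genes. S100a14 had 2 probes and each other member had 1.

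The arrays measured total RNA of sorted mouse medullary thymic epithelial cells (mTECs), the stromal cells of the thymic medulla that display peripheral self antigens to developing T cells. Mice with a knockout of the kinase gene Hipk2 in thymic epithelial cells (TECs) were compared with mating wild-type controls. From each genotype a CD80low and a CD80high subset was hybridised to Illumina bead arrays, with 2 arrays in each of the 4 groups and 8 in all. CD80 is a costimulatory ligand, and CD80high mTECs are the more mature subset that holds most Aire-expressing cells. The labels call the second array of a group a biological replicate. The promoter that drives the TEC-specific deletion, the strain and age of the mice, and whether animals were pooled are not given in the sources used here.

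S100 proteins act as pairs of subunits. On binding calcium they open a surface that holds target proteins such as annexins, myosin and membrane channels, and some are released from cells and bind receptors on others. The calprotectin subunits S100a8 and S100a9 are best known from neutrophils and from stressed or differentiating epidermis, and most of the family, like the fused-type genes of the cornified skin, lies in the epidermal gene region of the genome. mTECs express many genes that are otherwise restricted to single tissues, and Aire drives part of that expression.

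Values are log2 fluorescence intensities after background correction and quantile normalisation, and a difference of 1 is a doubling. A probe was tested if it lay above the 95th percentile of the estimated background in both arrays of at least 1 group. All 10 members passed, S100a4 only through the CD80high groups. A gene that passes through 1 subset only is more likely to be called higher there. The groups were compared with limma over the 14572 genes tested, and a gene was called at a Benjamini-Hochberg adjusted p under 0.05. With 2 arrays against 2, an exact permutation test of a single gene cannot give a two-sided p below 0.333, so the calls rest on the spread that limma shares across genes and groups.

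Between 21064 and 23117 probes lay above background on an array. Replicate arrays correlated at 0.974 to 0.989 across the 14572 genes tested, with 1 probe a gene. Hipk2 read 7.03 and 7.52 in control CD80low, 7.20 and 7.12 in knockout CD80low, 7.43 and 7.31 in control CD80high, and 7.98 and 7.25 in knockout CD80high arrays. Its mean was 0.12 lower in knockout than in control CD80low arrays and 0.24 higher in knockout CD80high arrays (limma, adjusted p = 1 in both). The place of its probe relative to the deleted part of the gene is not given, so these values do not check the genotype labels. Aire was 4.51 and Cd80 was 4.82 higher on the log2 scale in control CD80high than in control CD80low arrays, and 4.60 and 4.80 in knockout arrays. The basal keratin genes Krt5 and Krt14 were bright in CD80low arrays, while the epithelial marker Epcam was above background on 5 of the 8 arrays only. Both CD80low arrays numbered 1 stood apart in thymocyte transcripts, with a mean log2 intensity over the 13 listed genes of 8.19 and 8.31 against 6.60 and 6.58 in the arrays numbered 2. In bulk samples such as these, fewer cells of a type and less RNA per cell cannot be told apart.

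Most S100 members were higher in the CD80high subset. In control mice 7 of the 10 rose, 1 fell and 2 were not called, and in knockout mice the same numbers held with the same genes. S100a8, S100a9 and S100a14 rose most, S100a1, S100a4, S100a13 and S100a16 rose less, and S100a10 was the one that fell. Over all genes tested, 41.3% were called between the control subsets, 22.2% higher and 19.1% lower. The corresponding shares between the knockout subsets were 40.4%, 21.8% and 18.6%. The median member difference was 1.18 in controls and 1.31 in knockouts on the log2 scale, beside medians of -0.02 and -0.03 over all genes. The arrays of both subsets did not overlap for 8 members in controls, 7 of them higher and 1 lower in CD80high, beside 72.5% of all genes (35.8% higher and 36.7% lower). In knockouts they did not overlap for 9 members, 8 higher and 1 lower, beside 71.7% of all genes (35% higher and 36.7% lower).

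**Figure D1:**
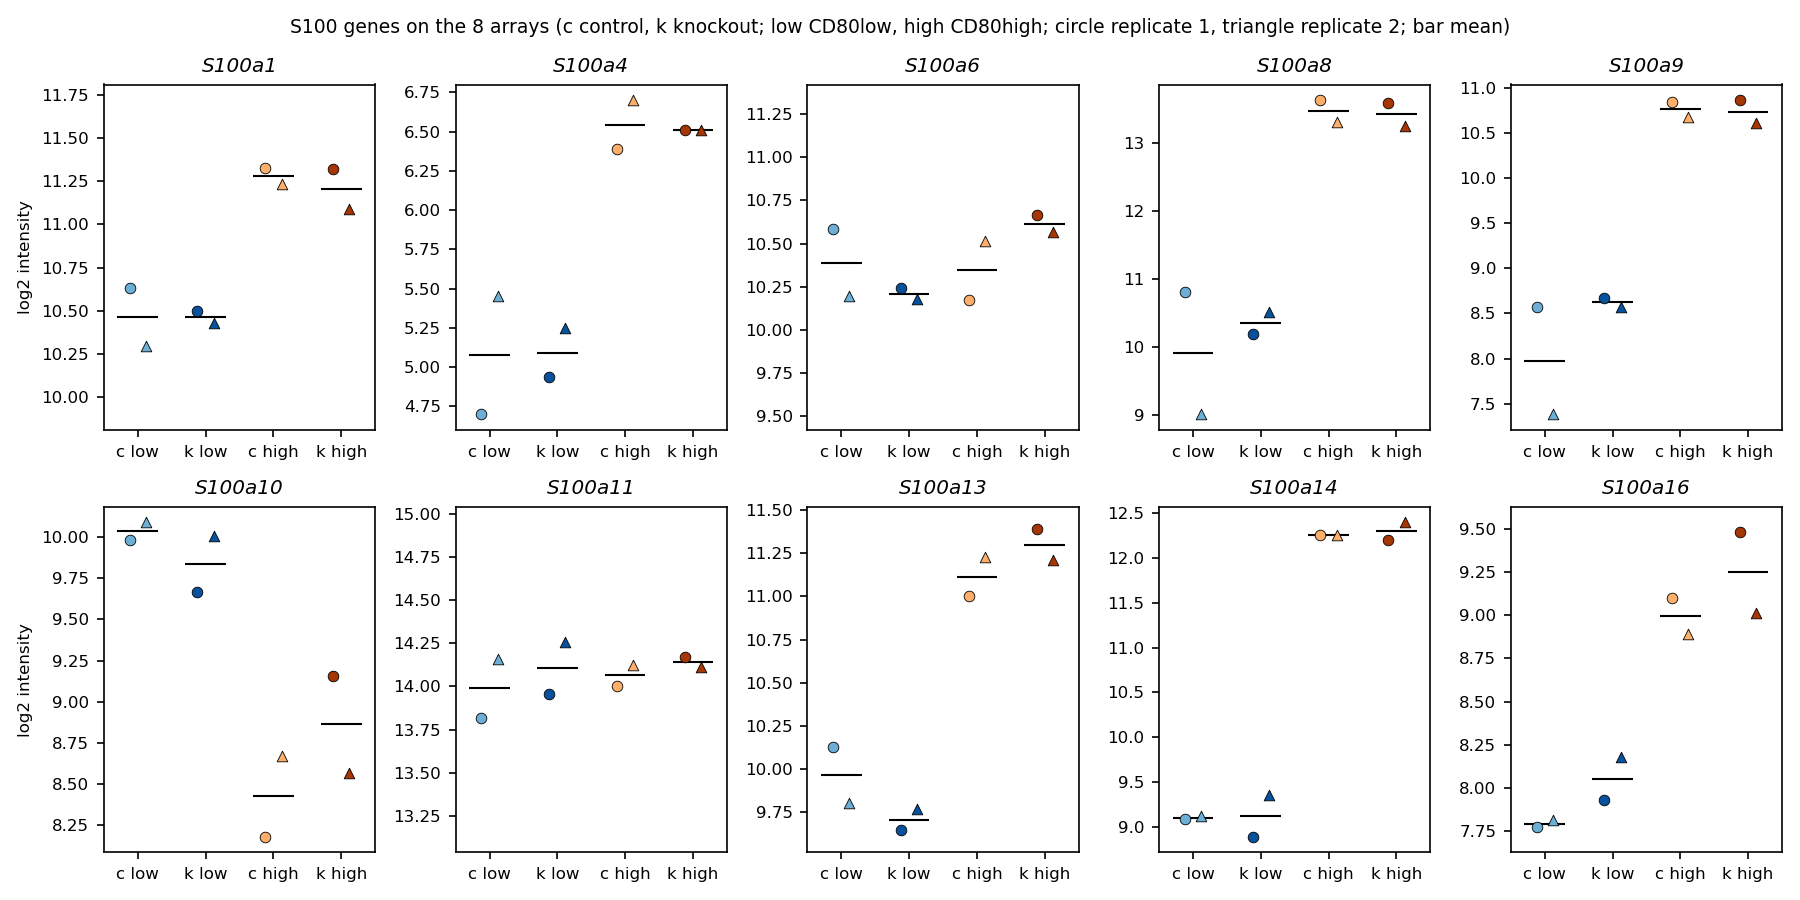
Log2 intensity of the 10 S100 genes on the 8 arrays, 1 panel a gene with its own axis. Points are arrays (circle replicate 1, triangle replicate 2) and bars are group means; the CD80high arrays of S100a8 lie at 13.26 to 13.63, above all CD80low arrays, while those of S100a10 lie below all CD80low arrays.

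S100a8 and S100a9 encode the subunits of calprotectin, a calcium- and zinc-binding complex that neutrophils release and that signals through Tlr4 and Ager. Both genes rose in CD80high mTECs of either genotype. Their promoter windows are shown because these genes moved together and carry the same kinds of motif. The windows run from 250 bases before to 50 after the annotated start (RefSeq, GRCm38.p6), in the direction of transcription, S100a8 at chr3:90668821-90669120 on the plus strand and S100a9 at chr3:90695672-90695971 on the minus strand. Capitals mark matches to the letters TATAAA or to a short form of the C/EBP motif, TTNNGNAA, both searched on either strand.
S100a8 promoter: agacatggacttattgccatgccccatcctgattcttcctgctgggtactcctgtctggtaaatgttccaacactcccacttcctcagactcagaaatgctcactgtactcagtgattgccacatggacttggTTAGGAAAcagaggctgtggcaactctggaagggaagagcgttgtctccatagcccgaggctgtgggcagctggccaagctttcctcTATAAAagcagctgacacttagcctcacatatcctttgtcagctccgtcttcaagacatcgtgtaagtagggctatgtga
S100a9 promoter: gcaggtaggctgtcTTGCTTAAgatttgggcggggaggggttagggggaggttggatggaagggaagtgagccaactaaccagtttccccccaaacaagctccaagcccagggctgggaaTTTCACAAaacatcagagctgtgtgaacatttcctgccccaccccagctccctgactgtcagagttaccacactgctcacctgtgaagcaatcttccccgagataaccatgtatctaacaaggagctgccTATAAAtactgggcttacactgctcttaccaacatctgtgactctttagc
Counted from the annotated start at 0, the C/EBP letters begin at -117 in S100a8 and at -236 and -130 in S100a9. TATAAA begins at -30 in S100a8 and at 0 in S100a9. Of the 8 members with a window, S100a8 and S100a9 were the 2 with the C/EBP letters, and S100a4, S100a8 and S100a9 the 3 with TATAAA. Of all 32851 windows of this length, 40.7% hold the first and 13.6% the second, so either match is common. S100a10 and S100a14 have no window in the table used.

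S100a8 read 10.81 and 9.01 in the CD80low arrays of controls and 10.19 and 10.52 in those of knockouts. It read 13.63 and 13.31 in control CD80high and 13.58 and 13.26 in knockout CD80high arrays. Every CD80high array was above every CD80low array, and the control CD80low array numbered 2 was the lowest of all. The difference between subsets was 3.56 ± 0.452 (SE, n = 2 arrays a group) in controls, an 11.8-fold rise with limma's adjusted p = 0.000132, and 3.06 or 8.36-fold in knockouts (adjusted p = 0.000378). The control value depends on which CD80low array is used. It was 4.46 without the array numbered 1 and 2.67 without the array numbered 2, past the threshold both times.

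S100a9 read 8.57 and 7.38 in control CD80low and 8.67 and 8.57 in knockout CD80low arrays. In CD80high arrays it read 10.85 and 10.67 in controls and 10.86 and 10.60 in knockouts. As for S100a8, the groups did not overlap and the control CD80low array numbered 2 was lowest. The difference was 2.78 ± 0.325 (SE) or 6.87-fold in controls (limma, adjusted p = 7.59e-05) and 2.11 or 4.31-fold in knockouts (adjusted p = 0.000512). The control value was 3.38 without the CD80low array numbered 1 and 2.18 without the array numbered 2, and remained past the threshold.

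Some genes listed as markers of other cells also differed between the subsets, and whether their transcripts came from such cells was not tested. Over the 16 neutrophil markers on the array, the mean log2 intensity was 6.79 to 7.01 in control CD80low, 6.98 to 7.09 in knockout CD80low, 7.43 to 7.47 in control CD80high and 7.25 to 7.43 in knockout CD80high arrays. Their summed linear intensity after correction was 4863 to 5545, 5422 to 5649, 7282 to 7600 and 6664 to 7128 in the same order. Of the 13 tested, 7 were called higher and 1 lower in control CD80high arrays, and 4 higher and 2 lower in knockout arrays. Over all genes, 41.3% were called between the control subsets and 40.4% between the knockout subsets. The myeloperoxidase gene Mpo rose by 3.53 in controls and the cathelicidin gene Camp by 2.53, while the gelatinase gene Mmp9 fell by 1.69. The elastase gene Elane differed by -0.66 in controls and -0.62 in knockouts, neither called. The lactoferrin gene Ltf differed by -0.07 in controls and fell by 0.77 in knockouts (limma, adjusted p = 0.0095). The receptor gene Cxcr2 and the collagenase gene Mmp8 were not above background on any array. The part of any such cells in the S100a8 and S100a9 values was not tested.

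The 2 control CD80low arrays also differed in Camp. It read 8.04 in the control CD80low array numbered 1 and 6.64 in the array numbered 2, where S100a8 and S100a9 were also lower. Erythroid markers, 8 on the array, had a mean of 6.84 and 5.77 in these 2 arrays. In the knockout CD80low arrays numbered 1 and 2, the erythroid mean was 6.52 and 5.84, and Camp read 7.93 and 7.30. There S100a8 read 10.19 and 10.52, and S100a9 read 8.67 and 8.57. Over the 14 monocyte, macrophage and dendritic cell markers, the mean was 6.01 to 6.22 in the 4 CD80low arrays and 7.36 to 7.42 in the 4 CD80high arrays. Of the 8 tested, 7 were called higher in either genotype, beside 22.2% of all genes in controls and 21.8% in knockouts. Adgre1 and Tyrobp passed the filter only through the CD80high groups, which favours a rise. The summed level of the 14 markers was 3200 to 5191 in CD80low arrays and 27636 to 30037 in CD80high arrays. Most of that sum came from the lysozyme genes Lyz1 and Lyz2. In CD80high arrays Lyz1 read 14.32 to 14.52 and Lyz2 read 11.81 to 12.25 on the log2 scale. From control CD80low to control CD80high arrays, the mean also rose for Mrc1 (5.76 to 9.53), Fcer1g (6.64 to 10.20) and Adgre1 (5.32 to 7.18). It rose too for Cd68 (6.41 to 8.02) and Csf1r (5.78 to 6.85). Itgax, Fcgr1, Ccr2 and Flt3, which mark dendritic cells, macrophages and monocytes, were not above background on any array. With both CD80low arrays numbered 1 left out, the S100a8 difference was 4.46 in controls and 2.90 in knockouts, and that of S100a9 was 3.38 and 2.16.

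**Figure D2:**
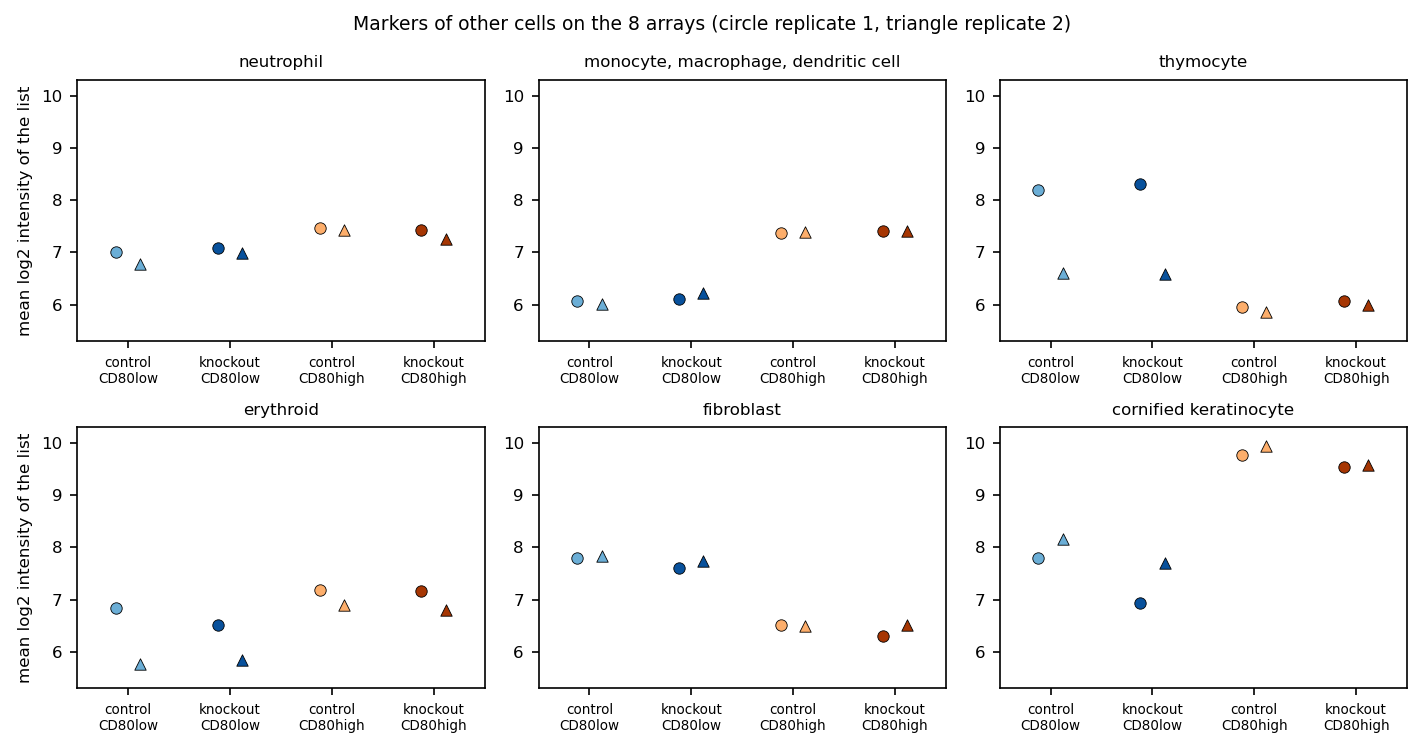
Mean log2 intensity of 6 lists of marker genes on the 8 arrays (circle replicate 1, triangle replicate 2), with groups along the horizontal axis and the same vertical axis in every panel. Thymocyte markers were at 8.19 and 8.31 in the CD80low arrays numbered 1, and cornified keratinocyte markers were between 9.55 and 9.94 in CD80high arrays.

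S100a14 is an epithelial S100 protein, found at the membrane of keratinocytes and other lining cells. It rose in both genotypes. Its brighter probe read 9.09 and 9.12 in control CD80low, 8.89 and 9.35 in knockout CD80low, 12.26 and 12.26 in control CD80high, and 12.20 and 12.40 in knockout CD80high arrays. Every CD80high array was above every CD80low array, and within a subset the genotypes overlapped. The difference was 3.16 ± 0.208 (SE) or 8.92-fold in controls (limma, adjusted p = 1.82e-06) and 3.18 or 9.07-fold in knockouts (adjusted p = 1.8e-06). The second probe gave the same direction, with 7.38 to 7.74 in the CD80low arrays and 10.24 to 10.58 in the CD80high arrays. Its differences were 2.62 in controls and 2.92 in knockouts.

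S100a16, a widely expressed member whose gene neighbours S100a14, also rose. It read 7.77 and 7.82 in control CD80low and 7.93 and 8.18 in knockout CD80low arrays. The CD80high arrays read 9.10 and 8.89 in controls and 9.48 and 9.01 in knockouts, all above the CD80low arrays. The difference was 1.20 ± 0.217 (SE) or 2.30-fold in controls (limma, adjusted p = 0.00136) and 1.19 or 2.29-fold in knockouts (adjusted p = 0.00147).

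Genes of the cornified epidermis were higher in the same arrays. Of the 12 cornified keratinocyte markers tested, 10 were called higher in control and 12 in knockout CD80high arrays, beside 22.2% and 21.8% of all genes. Spink5, 1 of the 12, passed the filter only through the CD80high groups, which favours a rise. The mean log2 intensity of the 12 markers was 7.80 and 8.16 in control CD80low and 6.94 and 7.69 in knockout CD80low arrays. In CD80high arrays it was 9.78 and 9.94 in controls and 9.55 and 9.57 in knockouts. Their summed level was 5369 to 6799, 3174 to 4949, 21176 to 24084 and 16565 to 17349 in the same order. The involucrin gene Ivl, an early part of the cornified envelope, rose by 2.40 in controls and 3.09 in knockouts. Their part in the S100 values was not tested.

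S100a1 and S100a13 start next to each other on opposite strands. S100a1 is the member of heart and skeletal muscle, where it binds ryanodine receptors such as Ryr2. S100a13 takes part in the release of Fgf1, a growth factor that has no signal peptide. Their promoter windows share 204 bases, and the S100a13 window, at chr3:90514185-90514484 on the plus strand of GRCm38.p6, is shown for that reason. Capitals mark matches on either strand to a short form of the NF-kB motif, written as 3 G, any 5 bases and 2 C.
S100a13 promoter: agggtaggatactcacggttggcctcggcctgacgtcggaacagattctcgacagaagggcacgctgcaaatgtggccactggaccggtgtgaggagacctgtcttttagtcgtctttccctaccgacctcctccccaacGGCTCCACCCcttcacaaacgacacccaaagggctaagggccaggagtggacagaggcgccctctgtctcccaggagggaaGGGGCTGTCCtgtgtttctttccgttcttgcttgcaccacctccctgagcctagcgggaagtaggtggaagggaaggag
These letters begin at -110 and -29 from the annotated start. The motif is in the windows of 6 of the 8 members, all but S100a8 and S100a9, and in 50.8% of all windows. The matches of S100a1 are the same 2 sites as those of S100a13, so these members are not separate counts. S100a16 has windows at different starts, and a member counts if any of its windows holds the letters. The AP-1 letters TGANTCA are in the windows of S100a11 and S100a16 and in 7.81% of all windows.

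S100a13 read 10.13 and 9.80 in control CD80low and 9.65 and 9.77 in knockout CD80low arrays. It read 11.002 and 11.23 in control CD80high and 11.39 and 11.21 in knockout CD80high arrays, with no overlap between subsets. The rise was 1.15 ± 0.203 (SE) or 2.22-fold in controls (limma, adjusted p = 0.00118) and 1.59 or 3.01-fold in knockouts (adjusted p = 0.000138).

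S100a1 read 10.63 and 10.29 in control CD80low and 10.50 and 10.43 in knockout CD80low arrays. It read 11.32 and 11.23 in control CD80high and 11.32 and 11.09 in knockout CD80high arrays. The subsets did not overlap, but this was the smallest of the called rises. It was 0.82 ± 0.200 (SE) or 1.76-fold in controls (limma, adjusted p = 0.00815) and 0.74 or 1.67-fold in knockouts (adjusted p = 0.0137). The control call was lost without the CD80high array numbered 1 (adjusted p = 0.0595) or the CD80low array numbered 2 (adjusted p = 0.0536). The knockout call was lost without the CD80high array numbered 1 (adjusted p = 0.091) or the CD80low array numbered 2 (adjusted p = 0.0607).

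S100a4, known from fibroblasts and metastatic tumours, binds the heavy chain of non-muscle myosin (Myh9). It was near background in the CD80low subset. CD80low arrays read 4.70 and 5.45 in controls and 4.94 and 5.25 in knockouts, and it was above background in 1 of the 2 control arrays and neither knockout array. In CD80high arrays it read 6.39 and 6.70 in controls and 6.51 and 6.51 in knockouts. The gene passed the filter only through these CD80high groups, which favours a rise. The rise in controls was 1.47 ± 0.261 (SE) or 2.77-fold (limma, adjusted p = 0.00123), with 1 of the 2 CD80low arrays not above background. In knockouts it was at least 2.20-fold, since the CD80low level is only a bound (adjusted p = 0.00157). Without background correction the differences were 0.69 and 0.64, both still past the threshold. Over the 7 fibroblast markers the mean went the other way, from 7.61 to 7.83 in CD80low arrays to 6.31 to 6.52 in CD80high arrays.

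S100a10 has lost calcium binding and forms a complex with annexin A2 at the plasma membrane, where Ahnak joins it. It was the member that fell. It read 9.98 and 10.09 in control CD80low and 9.67 and 10.01 in knockout CD80low arrays. In CD80high arrays it read 8.18 and 8.67 in controls and 9.16 and 8.57 in knockouts, all below the CD80low arrays. The difference was -1.61 ± 0.257 (SE), or 3.06-fold lower, in controls (limma, adjusted p = 0.00061) and -0.97, or 1.96-fold lower, in knockouts (adjusted p = 0.0121). The knockout call was lost without the CD80high array numbered 2 (-0.68, adjusted p = 0.103) or the CD80low array numbered 2 (-0.80, adjusted p = 0.072).

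The genes of annexin A2 and Ahnak were lower too. The plasminogen activator gene Plat, also listed as an S100 partner, rose by 1.38 in controls and 1.15 in knockouts. The annexin A2 gene Anxa2 read 14.09 and 14.32 in control CD80low and 14.30 and 14.30 in knockout CD80low arrays, against 12.81 to 13.16 in the 4 CD80high arrays. Its difference was -1.29 in controls (limma, adjusted p = 0.000406) and -1.22 in knockouts (adjusted p = 0.000597). Ahnak, a giant scaffold protein, differed by -1.59 (adjusted p = 0.00143) and -1.31 (adjusted p = 0.0046) on its brighter probe. Its other probe gave -0.51 and -0.71, neither past the threshold. The 7 fibroblast markers had summed levels of 8936 to 10528 in control CD80low, 10091 to 11185 in knockout CD80low, 1636 to 2163 in control CD80high and 1672 to 1978 in knockout CD80high arrays. Of these, 6 were called lower in controls and 4 in knockouts, beside 19.1% and 18.6% of all genes. Col1a2, Col3a1 and Pdgfra passed the filter only through CD80low groups, which favours a fall. Each of the 7 markers was above background on at least 1 array. Their part in the S100a10 and Anxa2 values was not tested.

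S100a6, or calcyclin, and S100a11, which binds annexin A1, were the 2 members not called in either genotype. S100a6 read 10.59 and 10.20 in control CD80low, 10.24 and 10.18 in knockout CD80low, 10.17 and 10.52 in control CD80high, and 10.67 and 10.57 in knockout CD80high arrays. The control subsets overlapped, while the knockout subsets did not. The difference was -0.04 in controls, with a 95% interval of -0.52 to 0.43, and 0.40 in knockouts, with an interval of -0.07 to 0.88 (limma, adjusted p = 0.885 and 0.154).

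S100a11 read 13.82 and 14.16 in control CD80low, 13.96 and 14.26 in knockout CD80low, 14.01 and 14.13 in control CD80high, and 14.17 and 14.11 in knockout CD80high arrays. The groups overlapped in every pairing of subsets. The difference was 0.08 in controls (interval -0.38 to 0.53) and 0.03 in knockouts (interval -0.42 to 0.49).

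**Figure D3:**
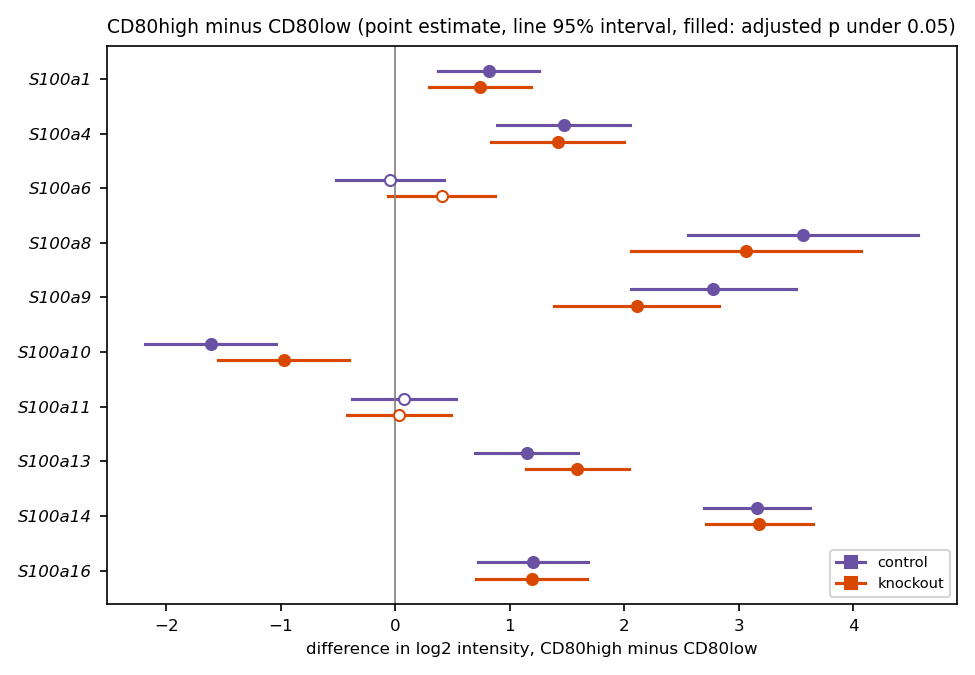
Difference in log2 intensity between CD80high and CD80low arrays for each S100 gene, in control and knockout mice, with 95% intervals from limma (filled points have an adjusted p under 0.05). The largest differences are those of S100a8 (3.56 in controls) and S100a14 (3.16), S100a10 lies below 0, and the intervals of S100a6 and S100a11 cross 0.

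All 10 members lie on chromosome 3, among 15 S100 genes that the RefSeq table places there. The order along the chromosome is S100a1, S100a13, S100a14, S100a16, S100a3, S100a2, S100a4, S100a5, S100a6, S100a7a, S100a8, S100a9, S100a7l2, S100a11 and S100a10. S100a10, the member that fell, stands at the end of this order beside S100a11. S100a6, which was not called, has the rising genes S100a5 and S100a7a on either side.

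Other S100 genes were counted from a separate list, of which 4 of the 5 on the array were tested. In controls 4 were called higher, 1 of which (S100g) was lost in 9 of 19 alternative settings, and in knockouts 3. The shares of all genes called higher were 22.2% in controls and 21.8% in knockouts. S100a5, S100a7a and S100g passed the filter only through the CD80high groups, which favours a rise. S100a3, a protein of the hair cuticle, read 7.19 and 7.53 in control CD80low and 10.32 and 9.94 in control CD80high arrays. Its difference was 2.77 in controls and 2.60 in knockouts. S100a5, known from olfactory neurons, differed by 2.25 and 2.28, although it was above background in only 1 of 2 CD80low arrays of each genotype. S100a7a, an epidermal gene, was at least 2.51-fold higher in control CD80high arrays and 1.69 higher on the log2 scale in knockouts. S100g, the vitamin D-dependent calcium-binding protein of the gut, was at least 1.06-fold higher in controls (limma, adjusted p = 0.0299) and differed by 0.39 in knockouts (adjusted p = 0.111). Its control call was lost without any 1 of the 4 control arrays, and also with no background correction, with offset 50, with no filter and in a fit of the 4 control arrays alone (adjusted p 0.0543 to 0.187). S100b, the glial member, was not above background on any array.

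The fused-type genes of the same chromosome region encode large cornified-envelope proteins that begin with an S100 domain. Of the 5 on the array 4 passed the filter, and 4 were called higher in either genotype. All genes were called higher at shares of 22.2% in controls and 21.8% in knockouts. The repetin gene Rptn read 7.96 and 8.81 in control CD80low, 6.25 and 8.45 in knockout CD80low, 12.15 and 12.51 in control CD80high, and 11.81 and 12.37 in knockout CD80high arrays. Its difference was 3.94 in controls and 4.73 in knockouts, and the latter was 3.63 without the knockout CD80low array numbered 1 and 5.83 without the array numbered 2. The hornerin gene Hrnr differed by 2.62 and 2.84, and by 1.78 and 1.74 without background correction. The filaggrin gene Flg differed by 2.47 and 2.58, and its control call was lost without the CD80high array numbered 2 (adjusted p = 0.0545), the CD80low array numbered 1 (adjusted p = 0.062) or, in knockouts, the CD80high array numbered 2 (adjusted p = 0.0548). With limma's trended robust prior the Flg calls were lost in both genotypes (adjusted p = 0.085 and 0.0767). In knockouts the Flg difference was 1.39 without the CD80low array numbered 1 and 3.78 without the array numbered 2. The trichohyalin-like gene Tchhl1 was at least 2.49-fold higher in controls and 2.32-fold in knockouts. It passed the filter only through the CD80high groups, which favours a rise.

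Annexins are calcium-dependent membrane-binding proteins, several of which pair with an S100 dimer. Of 12 tested, 2 were called higher and 5 lower in controls, and 2 higher and 3 lower in knockouts. The share of all genes called was 41.3% in controls and 40.4% in knockouts. Without the control CD80high array numbered 1 the control counts were 2 and 2. Beside Anxa2, Anxa6 fell by 1.71 in controls and 1.60 in knockouts, and by 0.92 and 0.84 without background correction. Anxa1, the partner of S100a11, fell by 1.09 and 1.16, and its control call was lost without the CD80high array numbered 1 (adjusted p = 0.0748). Anxa13, an intestinal annexin, rose by 1.95 in controls and was at least 3.51-fold higher in knockouts. Anxa10, a gastric annexin, was at least 2.96-fold and 2.41-fold higher on its brighter probe, while its other probe gave 0.38 (adjusted p = 0.198) and 0.64 (adjusted p = 0.0422). The brighter probe passed the filter only through the CD80high groups, which favours a rise. The median difference of the list was -0.12 in controls and -0.06 in knockouts.

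Of the 11 tested genes for other S100 partners, 3 were called higher and 3 lower in each genotype. Over all genes, 41.3% were called in controls and 40.4% in knockouts. The synaptotagmin gene Syt1, which joins S100a13 and Fgf1 in a release complex, rose by 2.47 and 2.29, and its other probe gave 1.27 and 1.12. Fgf1 itself fell by 1.28 and 1.00 on the brighter probe, while its other probe gave 0.53 and 0.13, neither past the threshold. In knockouts the Fgf1 call was also lost without the CD80high array numbered 1 (adjusted p = 0.0546) or the CD80low array numbered 1 (adjusted p = 0.0593). The ryanodine receptor gene Ryr2 was at least 2.26-fold and 2.35-fold higher. It passed the filter only through the CD80high groups, which favours a rise. The plasminogen activator gene Plat rose by 1.38 and 1.15. Myh9 fell by 0.71 (adjusted p = 0.04) and 0.82 (adjusted p = 0.0218), with the control call lost without any 1 of the 4 control arrays (adjusted p 0.0656 to 0.199). The knockout call was lost without either CD80low array or the CD80high array numbered 1 (adjusted p 0.0619, 0.0716 and 0.179). On the other probe of Myh9 the differences were -0.31 and -0.25.

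Most calls among receptors for released S100 proteins were lower in CD80high arrays. Of 8 tested, 0 were called higher and 3 lower in controls, and 1 higher and 3 lower in knockouts, shares near the 41.3% and 40.4% of all genes. Without the control CD80high array numbered 1 the control counts were 0 and 1. Mcam read 7.10 and 7.87 in control CD80low and 5.36 and 5.50 in control CD80high arrays, a difference of -2.06, and differed by -1.76 in knockouts. Its other probe gave -1.24 and -1.12, and the brighter probe gave -1.14 and -1.13 without background correction. The embigin gene Emb fell by 0.95 and 1.30, and its control call was lost without the CD80high array numbered 1 (adjusted p = 0.0581). Tlr4, the endotoxin receptor that S100a8 also engages, fell by 0.84 (adjusted p = 0.0315) and 1.22 (adjusted p = 0.00512). Its control call was lost without either CD80high array or the CD80low array numbered 2 (adjusted p = 0.112, 0.117 and 0.221), and with no background correction (adjusted p = 0.121) or no second normalisation (adjusted p = 0.106). The gene of the co-receptor, Cd14, differed by 0.43 in controls (adjusted p = 0.107) and 0.72 in knockouts (adjusted p = 0.0144), the latter lost without the CD80high array numbered 1 (0.0939) or the CD80low array numbered 2 (0.084). Ager, the receptor for advanced glycation end products, was above background on all 8 arrays and was not called in either genotype. The scavenger receptor gene Cd36 was not above background on any array.

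**Figure D4:**
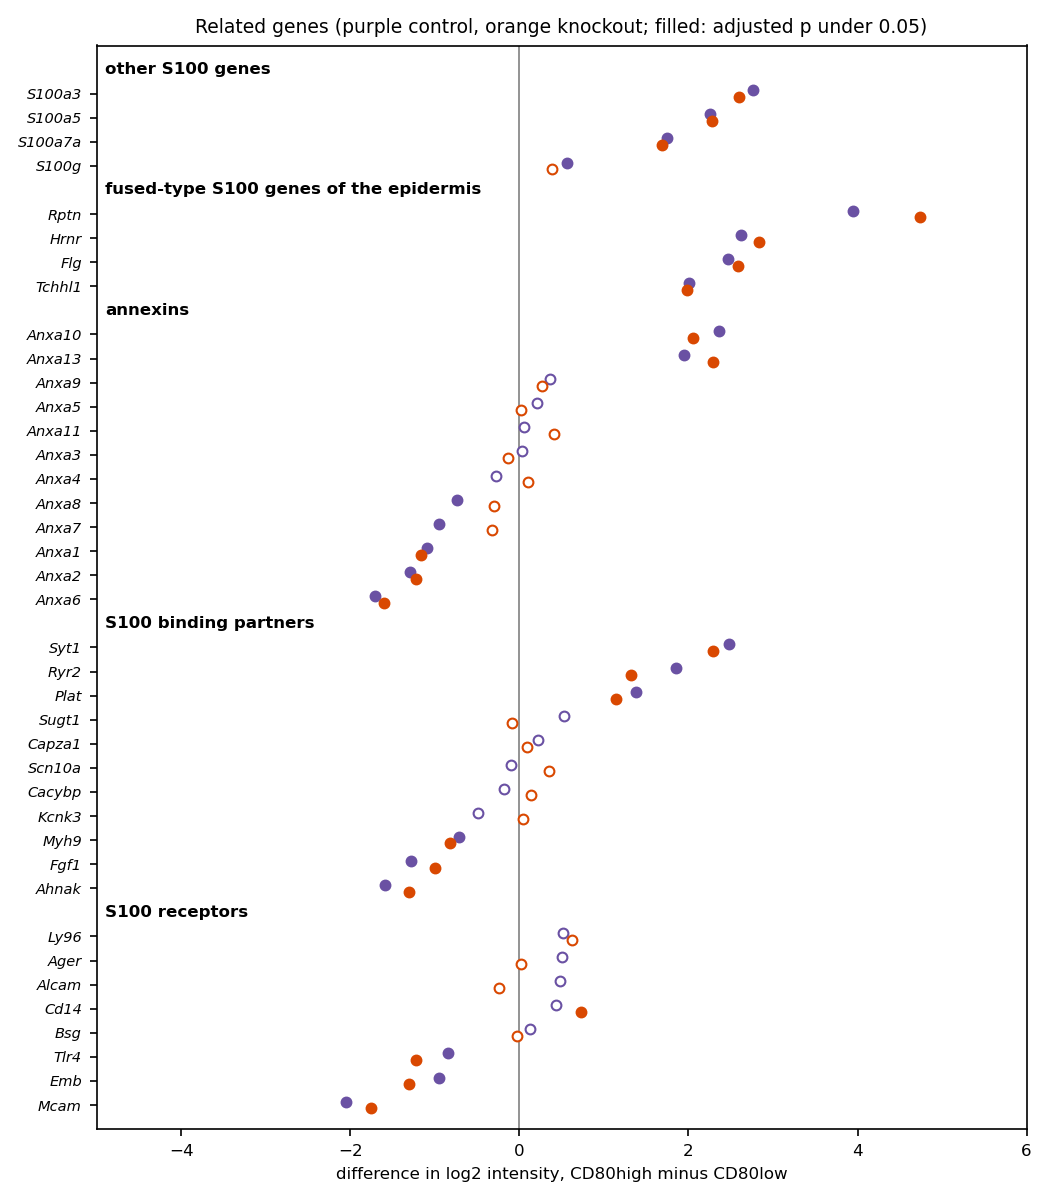
Difference in log2 intensity between CD80high and CD80low arrays for tested genes of 5 lists related to the S100 members, with control in purple and knockout in orange. Filled points have an adjusted p under 0.05 in limma; the other S100 and fused-type genes all lie above 0, while annexins, partners and receptors lie on both sides.

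The knockout of Hipk2 was compared with control within each subset. None of the 10 members was called in CD80low or in CD80high arrays by limma, and 0 had an unadjusted p under 0.05 in either. The share of all genes called was 0.00686% in each subset, which is 1 gene. In all, 980 genes had an unadjusted p under 0.05 in CD80low and 232 in CD80high arrays, where 728.6 is 5% of those tested. The median member difference, knockout minus control, was 0.02 in CD80low and 0.06 in CD80high arrays, beside 0.01 and 0.00 over all genes.

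In CD80low arrays the 2 largest differences were those of S100a9 and S100a8, whose control arrays lay far apart. S100a9 differed by 0.65 ± 0.325 (SE), with an unadjusted p of 0.0748 and limma's adjusted p = 0.82, and the knockout arrays (8.67 and 8.57) lay near the higher control array (8.57). The S100a9 difference was 1.24 without the control CD80low array numbered 1 and 0.05 without the array numbered 2. S100a8 differed by 0.45 ± 0.452 (SE, limma, adjusted p = 1), with both knockout arrays between the control arrays, and gave 1.35 and -0.45 with the same arrays left out. S100a13 was lower in both knockout arrays than in both controls (-0.26), and S100a16 was higher in both (0.26). The arrays of both genotypes did not overlap for these 2 members, beside 30.8% of all genes. The other 6 members differed by -0.20 to 0.12.

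In CD80high arrays S100a10 differed by 0.44, with a 95% interval of -0.13 to 1.01 and overlapping arrays. S100a6 was higher in both knockout arrays (0.27, interval -0.20 to 0.74) and was the only member whose genotypes did not overlap, beside 28.2% of all genes. S100a16 differed by 0.25, S100a13 by 0.19, and the other 6 by -0.07 to 0.08. The intervals were widest for S100a8, from -1.06 to 0.95, and those of S100a14 ran from -0.42 to 0.51. These intervals are not adjusted for the 14572 genes tested. They are not limits of detection, and with 2 arrays a group a change beyond them could still go uncalled.

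**Figure D5:**
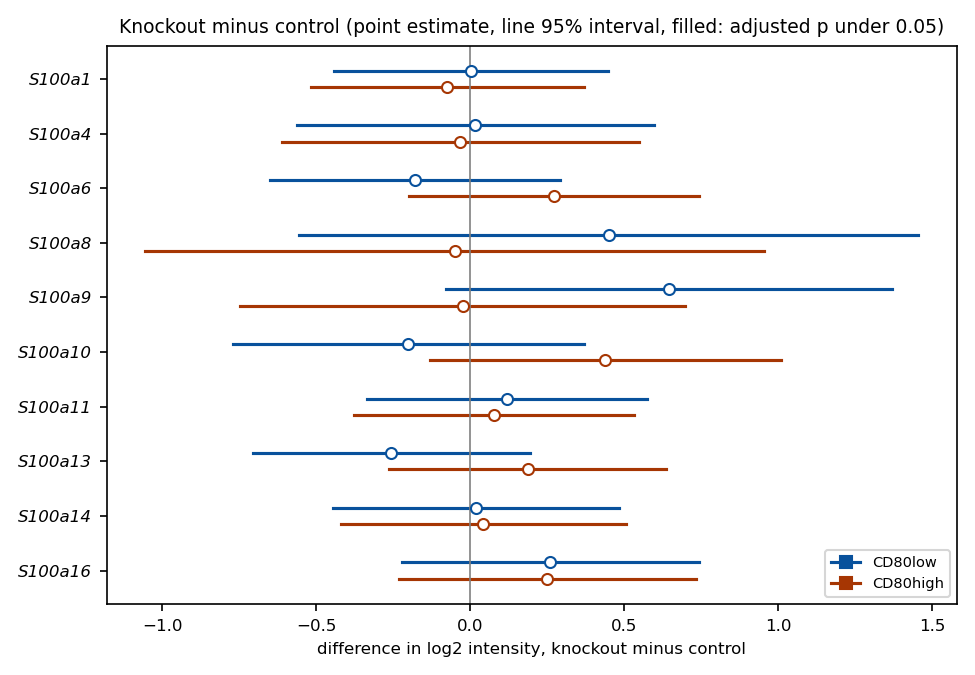
Difference in log2 intensity between knockout and control arrays for each S100 gene in CD80low and CD80high arrays, with 95% intervals from limma. No point is filled, since none has an adjusted p under 0.05, and all intervals cross 0; the largest difference is that of S100a9 in CD80low arrays (0.65).

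Whether the difference between subsets itself depended on genotype was tested with an interaction term. It called 0 members and 0% of all genes with limma, and no member had an unadjusted p under 0.05. The largest terms were -0.67 for S100a9, 0.64 for S100a10, -0.50 for S100a8, 0.45 for S100a6 and 0.44 for S100a13, each with an adjusted p of 1. The S100a9 term was -1.27 without the control CD80low array numbered 1 and -0.07 without the array numbered 2, and the S100a8 term was -1.40 and 0.40. The subset differences of S100a10 (-1.61 in controls, -0.97 in knockouts) and S100a13 (1.15 and 1.59) were thus not shown to depend on genotype. The related lists gave no call between genotypes either. In the CD80low subset all 4 fused-type genes and all 12 cornified keratinocyte markers tested were lower in knockouts, but none was called. Their median differences were -0.61 and -0.64, and Flg is on both lists. The cornified mean in CD80low arrays numbered 1 and 2 was 6.94 and 7.69 in knockouts, and 7.80 and 8.16 in controls. In the CD80high subset 4 fused-type genes and 11 cornified markers were lower in knockouts, again with none called. Of the S100 members, 7 were higher and 3 lower in the CD80low subset.

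The genes whose pattern over the 8 arrays was most like that of a member were found by the root mean square distance of log2 values, each centred on its own mean. For S100a9 the nearest was Camp, at a distance of 0.25, and then Dusp15. For S100a8 they were Ly9, at 0.31, and Cabp2. The 2 calprotectin genes lay 0.48 from each other on this scale. S100a14 was nearest to Gsdmc3 (0.13) and Guca2a (0.15), a gasdermin and the guanylin gene of the gut. The nearest to S100a10 were Bnc2, a zinc finger gene, at 0.15 and 5330439J01Rik at 0.17. For S100a13 they were Nmb and Rasl12 (both 0.11), for S100a16 Rasl10a and Gltpd2 (both 0.10), for S100a4 Alox12 (0.08) and Chst8, and for S100a1 F7 (0.06) and Slc10a3. Dnajb12 and Yjefn3 (both 0.09) were nearest to S100a6, and Vwa8 (0.04) and Bcl9 (0.06) to S100a11. S100a6 and S100a11, which varied least, lay 0.25 apart, the closest pair of members. A small distance is easier to reach for a gene that varies little, so these values are a description of each pattern.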

How the data were processed

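Illumina bead arrays of 8 samples in 4 groups were analysed from the deposited table of probe intensities, which the authors deposited on a linear scale; their background treatment and normalisation are not given in the sources used here. A second table was not used, since its 16 per-sample columns, 8 of them signals, carry slide positions and no sample names. Gene symbols came from the platform annotation: 35667 probes had 1 symbol, 0 had several and 10422 had none.

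Intensities were corrected with normexp (offset 16), quantile normalised over the 8 arrays and log2 transformed in limma 3.58.1 (R 4.3.3). Of a gene's tested probes, the one with the highest mean over arrays was used. Group means were fitted over all 8 arrays, with 4 residual and 6.21 prior degrees of freedom, and Benjamini-Hochberg adjustment over 14572 genes. The number of arrays limits the precision. The script was tested on simulated data.

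A fold is called "at least" where a probe was not above background on any array of the dimmer group: the brighter group's mean is set against the lowest signal above background of each dim array, or the probe's own where higher. The members and lists were chosen with earlier results of these data known. All members are named. Of each other list, counts and up to 5 genes with the smallest p over 5 contrasts were eligible for naming. Called genes of lists of 10 or fewer were eligible too. Elane, Ltf, Cd36, Lyz1, Lyz2, Mrc1, Fcer1g, Adgre1, Cd68 and Csf1r were named after their values were seen. So were Ager, S100b, Myh9, Krt5, Krt14, Epcam, Tyrobp, Spink5, Col1a2, Col3a1, Pdgfra and the markers never above background. The 2 genes nearest each member by pattern were named. Alternatives covered background correction, normalisation, filters, probes, the variance prior, arrays left out and the replicate number. Promoters are from RefSeq.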

Additional observations from a re-analysis of the deposited data

How the results depend on the processing

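Of 850 recomputed values for 45 member results, 817 kept their direction and their side of the threshold, and no called member turned its direction. Under 19 alternative settings, 8 of which leave out 1 array, 7 to 8 S100 members were called between subsets in controls and 6 to 8 in knockouts. Between genotypes and in the interaction the count was 0 throughout. The calls that were lost are given with S100a1 and S100a10 above; with 2 arrays a group, a group left with 1 array was assumed to vary like the others.

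With the replicate block, the number as a term over all 8 arrays, 8 members were called between subsets in either genotype and 0 between genotypes. The labels do not say that a number marks a shared animal. Deviations from the group means correlated at 0.51 between the CD80low groups, 0.47 between the CD80high groups and 0.07 to 0.14 across subsets. Over all genes in CD80low arrays, 14 were called between genotypes with that block, 51 with a block within each subset and 1 with none; the block within each subset also gave 3 higher and 3 lower calls among receptors between control subsets. For CD80low genotypes, leaving out the control CD80low array numbered 2 gave 22 calls over all genes.

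Besides Fgf1, whose probes opposed each other, the differences that changed sign were not called, and the cause was not tested. With offset 50 S100a4 in CD80low gave -0.0019 between genotypes. The other probe of Fgf1 gave 0.53 and 0.13 between subsets, and that of S100a14 gave -0.16 between CD80low genotypes. With both CD80low arrays numbered 1 left out, S100a6 gave 0.15 and S100a11 -0.091 between control subsets, S100a11 -0.12 between knockout subsets, and S100a4 -0.21 between CD80low genotypes. Leaving out 1 array at a time, the range between subsets was -0.24 to 0.15 for S100a6 in controls, and -0.091 to 0.25 in controls and -0.12 to 0.19 in knockouts for S100a11. Between CD80low genotypes it was -0.17 to 0.17 for S100a1, -0.36 to 0.39 for S100a4, -0.37 to 0.016 for S100a6, -0.45 to 1.35 for S100a8, -0.050 to 0.29 for S100a11 and -0.21 to 0.25 for S100a14. Between CD80high genotypes it was -0.19 to 0.043 for S100a1, -0.19 to 0.12 for S100a4, -0.21 to 0.11 for S100a8, -0.15 to 0.10 for S100a9 and -0.056 to 0.14 for S100a14. The S100a8 interaction ranged from -1.40 to 0.40.

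Signal near background limits S100a4, whose differences shrank by the most among called members without background correction. The same setting gave smaller but still called rises for the dim genes S100a5 (1.16 and 1.32), S100a7a (0.82 and 0.82), Anxa13 (1.10 and 1.10), Anxa10 (1.07 and 0.87), Tchhl1 (0.88 and 0.82) and Ryr2 (0.80 and 0.63).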
